A study of Saccharomyces cerevisiae with 12 samples.

Results

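Uptake and handling of iron and copper were followed through 40 genes of *S. cerevisiae*, picked by symbol from the Aft1p and Aft2p regulon, the siderophore carriers, the metalloreductases and the copper and manganese transporters. All 40 had a probe set of their own, paired with no other gene in the platform annotation, out of 5449 genes measured. The arrays compared wild-type W303 cells with 3 isogenic mutants, *top1Δ* (*top1::natr*), which lacks topoisomerase I, *top2ts* (*top2-1*), whose topoisomerase II is heat-sensitive, and *top1Δtop2ts*, which carries both alleles. Each strain was measured on 3 Affymetrix Yeast Genome 2.0 arrays, labelled as biological replicates. All strains, wild-type included, were grown in rich medium, treated with α-factor, the pheromone that stops a-type cells in G1, for 90 min at 25°C and then moved to 37°C for 90 min with the pheromone still present. The *top2ts* cells thus lost topoisomerase II activity during the heat step only, the *top1Δ* cells throughout their growth, and no culture was deprived of iron or copper. Values are the deposited MAS5 signals, a linear measure of probe set intensity. As a check of the labels, the *TOP1* signal was 1041 ± 269 (SD, n = 3) in wild-type, 1065 ± 260.4 in *top2ts*, 0.933 ± 0.231 in *top1Δ* and 3.5 ± 5.20 in *top1Δtop2ts*. *TOP2*, whose point-mutated allele is still transcribed, gave 2878 ± 1218 in wild-type and 1743 ± 510.4 in *top1Δtop2ts*. The 6 marker genes of mating type a, the type of these strains, were all above background in every strain. Of the 4 markers of the opposite type, 3 were above background in wild-type and *top1Δ* and 4 in *top2ts* and *top1Δtop2ts*. *MF(ALPHA)1* rose in *top1Δtop2ts* (log2 change 2.94).

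Yeast takes up iron in more than one way. In the reductive pathway, Fre reductases at the cell surface reduce ferric iron, and the copper-dependent oxidase Fet3p with the permease Ftr1p carries it inside, so that iron supply depends on copper delivered by Ctr1p, Atx1p and Ccc2p. In the other pathway, transporters of the Arn family import iron bound to siderophores, iron chelators made by other microbes, which Fit mannoproteins help to hold in the cell wall. The activators Aft1p and Aft2p switch these genes on when iron is scarce and are held back when the glutaredoxins Grx3p and Grx4p signal that iron is sufficient, while Mac1p does the corresponding work for copper.

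Loss of both topoisomerases went with lower transcripts of *GRX3* and of the 3 copper transporters. It also went with lower transcripts of *SMF3*, *CCC1*, *MRS3* and *MRS4*, which move iron across the vacuolar and mitochondrial membranes. The siderophore and cell wall genes other than *ENB1* did not pass the test against wild-type. Among them *SIT1*, *ARN1* and *FIT2* were higher in *top1Δtop2ts* in alternative fits described below, with a replicate block, equal medians or spike-in scaling. In *top1Δtop2ts*, 10 of the 40 genes (25.0%) fell and 0 rose at the threshold of 0.05 on the adjusted p, against 15.1% and 1.25% of all genes. The genes that fell were *CTR1*, *CTR2*, *CTR3*, *SMF3*, *CCC1*, *MRS3*, *MRS4*, *ENB1*, *TIS11* and *GRX3*. The median log2 change was -0.47 over the 40 genes and -0.54 over all genes. In *top1Δ* *TIS11* alone fell (0.936% of all genes fell) and 0 rose (0.0551%), with a median of -0.32 against -0.17. In *top2ts* *GRX3* fell, as did *FRE5* from values at background (0.532%), and 0 rose (0.330%), with a median of -0.33 against -0.22. In these tests, made with limma on log2 signal over all 12 arrays with Benjamini-Hochberg adjustment over 5449 genes, the standard error of a difference between strains was 0.39 for every gene. All 3 mutants were set against the same wild-type arrays.

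**Figure D1:**
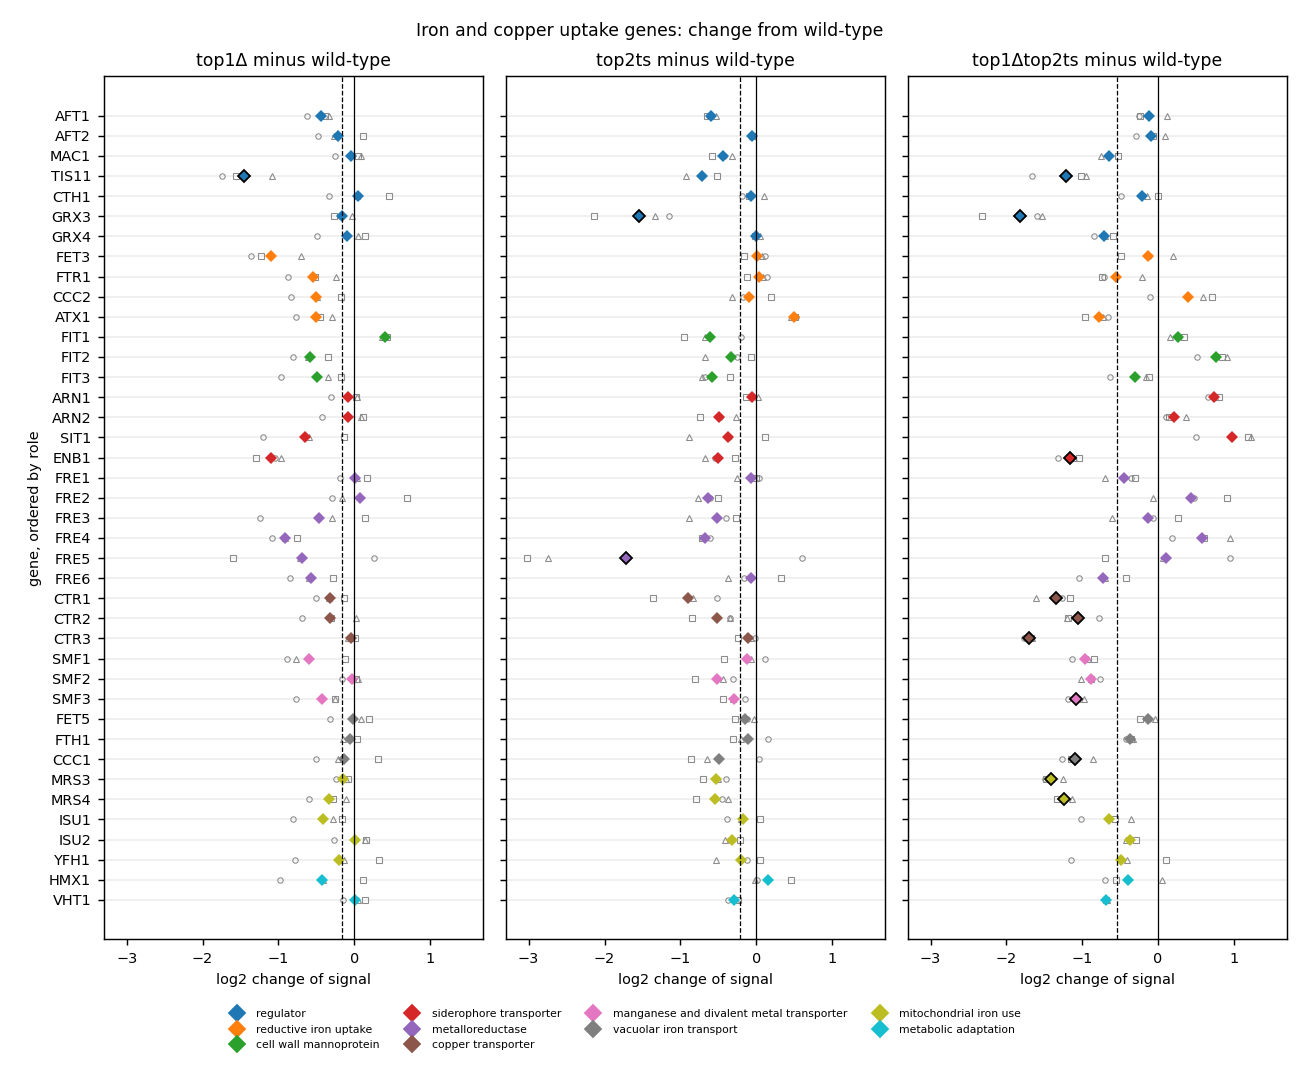
Log2 change of signal from wild-type for each of the 40 genes (rows, coloured by role) in top1Δ, top2ts and top1Δtop2ts (panels). Diamonds are means of 3 arrays, outlined in black where limma's test passed, open circles, squares and triangles are same-numbered pairs of arrays of replicates 1, 2 and 3, and the dashed line is the median gene; in top1Δtop2ts the copper transporters lie between -1.70 and -1.06 and SIT1 at 0.97.

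The change of the median gene sets the level against which these values stand. The deposited arrays differed in general brightness, and the median gene changed by -0.17 in *top1Δ*, -0.22 in *top2ts* and -0.54 in *top1Δtop2ts*, where it came to -0.02 when the arrays were given equal medians. Poly-A spike-in RNAs, added to equal numbers of cells, stood 0.03, -0.00 and 0.15 log2 units from wild-type in the 3 mutants. They were lowest in replicate 2, where they ran from 9.88 to 10.01 against 10.85 to 11.08 in replicate 3, so much of the spread within a strain is common to the arrays of a number. The hybridization controls of the arrays stood -0.23, -0.33 and -0.44 log2 units from wild-type in the same order of mutants. In replicate 2 they ran from 9.50 in *top1Δtop2ts* to 10.73 in wild-type. Their part in the changes was not tested. Fewer transcripts per cell and fewer cells holding a transcript cannot be told apart in such cultures. With equal medians, 12 of the 40 genes (30%) were lower in *top1Δtop2ts* (22.9% of all genes) and 11 (27.5%) were higher (21.7%), the latter being *AFT1*, *AFT2*, *ARN1*, *ARN2*, *CCC2*, *FET5*, *FIT1*, *FIT2*, *FRE2*, *FRE4* and *SIT1*. The replicate number was also used as a block, which takes out differences between replicate numbers. The labels do not say that a number marks a set of experiments. With this block, 22 (55.0%) were lower (62.7% of all genes) and 4 (10%) were higher (4.99%), namely *ARN1*, *FIT2*, *FRE4* and *SIT1*. The 10 genes that fell were lower in both of these fits as well. The lower calls with the block include *FTH1* (-0.37), *ISU2* (-0.36) and *FRE1* (-0.45), which fell less than the median gene (-0.54). *ATX1*, *FRE1*, *FRE6*, *FTH1*, *FTR1*, *GRX4*, *ISU1*, *ISU2*, *MAC1* and *VHT1* were lower with the block and did not pass with equal medians. Scaling to the spike-ins gave 21 lower (62.6% of all genes) and 3 higher (2.50%) in *top1Δtop2ts*. Single arrays weighed on the count, which went to 2 without replicate 1 or 3 of wild-type or without replicate 2 of *top1Δtop2ts*, and to 13 without replicate 2 of wild-type. Only *CTR3* and *GRX3* remained in every fit that left out 1 array. The arrays of *top1Δtop2ts* lay below all wild-type arrays for 14 of the 40 genes (28.7% of all genes) and above them for *ARN1* (1.27%).

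The 3 copper transporters all fell in *top1Δtop2ts*. *CTR3* encodes a high-affinity transporter of the plasma membrane whose gene is interrupted by a transposable element in many laboratory strains. In arrays of replicates 1, 2 and 3 in turn, as for all genes here, its signal was 472, 280.1 and 422 in wild-type, 454, 281 and 399.7 without topoisomerase I, 465, 238 and 402 in *top2ts* and 138, 88.0 and 133 in the double mutant. The highest array of the double mutant was below the lowest of each other strain, whereas both single mutants overlapped with wild-type. The log2 change was -1.70 (3.25-fold lower, adjusted p = 0.000511 from limma) against wild-type, -1.66 against *top1Δ* (adjusted p = 0.00116) and -1.59 against *top2ts* (adjusted p = 0.00169). *CTR1*, the main copper importer of the cell surface, gave 4378, 2434 and 3544 in wild-type and 1821, 1085 and 1166 in *top1Δtop2ts*, with no overlap. It gave 3098, 2216 and 2813 in *top1Δ* and 3052, 944 and 1994 in *top2ts*, both overlapping with wild-type. Its log2 change was -1.35 in *top1Δtop2ts* (2.54-fold lower, adjusted p = 0.00878) and -0.91 in *top2ts*, where it passed with the replicate block, equal medians or spike-in scaling but not in the fit without them (adjusted p = 0.768, 0.00747 with the block). *CTR2* encodes the transporter that releases copper from the vacuole, and its signal was 1538, 1093 and 1450.0 in the wild-type arrays, 950.1, 886 and 1479 in those of *top1Δ*, 1214, 611 and 1138 in those of *top2ts* and 893, 480.1 and 629.9 in those of the double mutant. The double mutant again lay below all wild-type arrays, with a log2 change of -1.06 (adjusted p = 0.0456). This call was lost in 8 of 12 fits that left out 1 array, those without replicate 1 or 3 of wild-type, any replicate of *top1Δ*, replicate 3 of *top2ts* or replicate 2 or 3 of *top1Δtop2ts*, with an adjusted p of up to 0.229. *CTR1* lost its call without replicate 1 or 3 of wild-type or replicate 2 of *top1Δtop2ts*, with an adjusted p of up to 0.104.

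Of the 3 manganese and divalent metal transporters of the Smf family, *SMF3* fell and the others passed under some alternatives. *SMF3*, which moves iron out of the vacuole, gave 1939.5, 1125 and 1446 in wild-type and 853, 535 and 734 in *top1Δtop2ts*, with 1135, 945 and 1212 in the *top1Δ* arrays and 1756, 834 and 1175 in those of *top2ts*. The groups of wild-type and double mutant did not overlap, and *SMF3* fell by 1.08 on the log2 scale (adjusted p = 0.0415). That call was lost without replicate 1 or 3 of wild-type or of *top1Δ*, replicate 3 of *top2ts* or replicate 2 or 3 of *top1Δtop2ts*, with an adjusted p of up to 0.260. *SMF1*, for the manganese transporter of the cell surface, and *SMF2*, for that of intracellular vesicles, did not overlap with wild-type either. Their log2 changes of -0.97 and -0.89 did not pass (adjusted p = 0.0684 and 0.0943) but did so with the replicate block (0.000428 and 0.000157), with equal medians and with spike-in scaling. In the single mutants the 3 genes had log2 changes from -0.59 to -0.03, of which that of *SMF2* in *top2ts* (-0.52) passed with the block (adjusted p = 0.0496).

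*CCC1*, for the importer that stores iron in the vacuole, fell as well. It gave 1169.7, 623 and 1025 in wild-type, 828, 775 and 886 without topoisomerase I, 1198, 343 and 652 in *top2ts* and 484, 282 and 567 in the double mutant. The double mutant lay below wild-type in full, while the *top2ts* arrays spread over a wider range than those of wild-type. *CCC1* fell by 1.09 (adjusted p = 0.0391), a call lost without replicate 1 or 3 of wild-type or of *top1Δ*, replicate 3 of *top2ts* or replicate 2 of *top1Δtop2ts*, with an adjusted p of up to 0.265. *FET5* and *FTH1*, for the oxidase and the permease that export iron from the vacuole, had log2 changes of -0.13 and -0.37. Neither passed (adjusted p = 0.817 and 0.482). *FTH1* did so with the block (adjusted p = 0.0408), though it fell less than the median gene (-0.54). The sign of *FET5* turned with equal medians (0.39, adjusted p = 0.033).

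Of the genes that bring iron into mitochondria and build it into clusters, the carriers fell and the rest did not pass. *MRS3* and *MRS4* encode carriers of the mitochondrial inner membrane that supply iron for heme and iron-sulfur clusters. *MRS3* gave 1937, 1176 and 1738 in the wild-type arrays, 1635, 1112 and 1615 in those of *top1Δ*, 1474, 724 and 1222 in those of *top2ts* and 688, 423 and 727 in those of the double mutant. *MRS4* gave 977, 621 and 812 in wild-type and 406, 246 and 369 in *top1Δtop2ts*, with 647, 510.0 and 757 in the *top1Δ* arrays and 717, 357 and 627 in those of *top2ts*. For both genes the double mutant lay below every wild-type and every *top1Δ* array, and same-numbered arrays of *top2ts* lay between those of wild-type and of the double mutant. *MRS3* fell by 1.41 (2.65-fold, adjusted p = 0.00596) against wild-type and by 1.27 against *top1Δ* (adjusted p = 0.0255), and *MRS4* fell by 1.25 (2.37-fold, adjusted p = 0.0162). Without replicate 1 or 3 of wild-type or replicate 2 of *top1Δtop2ts*, both lost the call against wild-type, with adjusted p of up to 0.0649 and 0.132. The call of *MRS3* against *top1Δ* was lost without replicate 1 or 3 of *top1Δ* or replicate 2 or 3 of *top1Δtop2ts* (adjusted p of up to 0.178). In *top2ts* their changes of -0.53 and -0.54 passed with the replicate block (adjusted p = 0.0312 and 0.0394). *ISU1* and *ISU2*, for the scaffolds on which clusters are assembled, and *YFH1*, for yeast frataxin, had log2 changes of -0.65, -0.36 and -0.49 in *top1Δtop2ts*, of which those of *ISU1* and *ISU2* passed with the block (adjusted p = 0.00252 and 0.042). *VHT1*, for the transporter of the vitamin biotin, and *HMX1*, for heme oxygenase, had log2 changes of -0.68 and -0.40, and *VHT1* passed with the block (adjusted p = 0.000542).

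**Figure D2:**
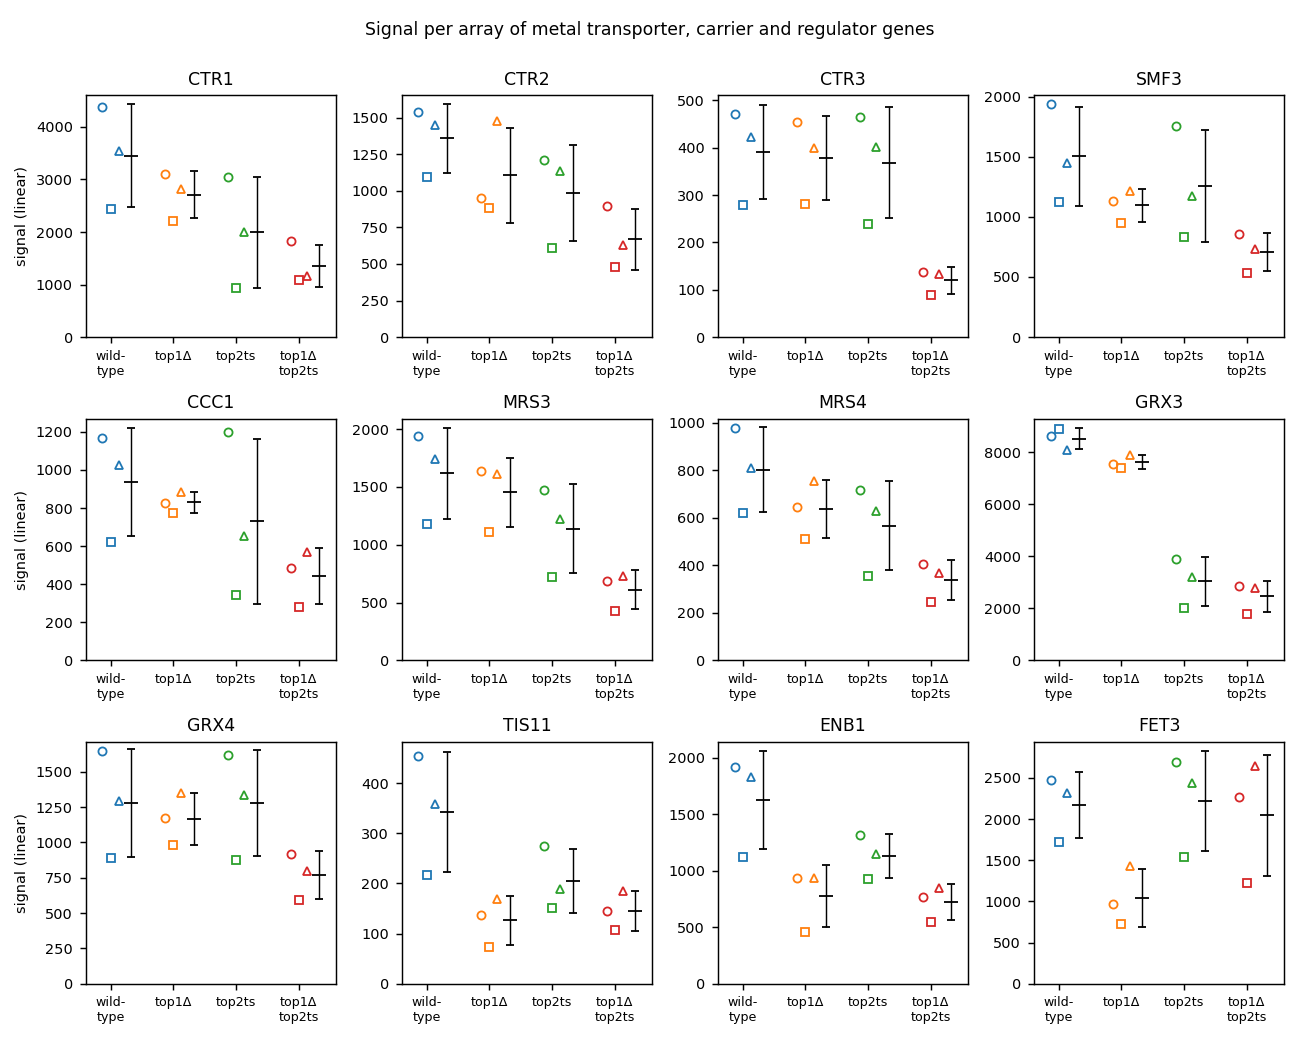
Signal on a linear scale (vertical axis, from 0) in each array of the 4 strains (horizontal axis) for 12 genes of metal transport and its control. Circles, squares and triangles are replicates 1, 2 and 3, and bars give the mean ± SD of 3 arrays; CTR3 stands at 119.8 ± 27.7 in top1Δtop2ts against 391 ± 99.4 in wild-type, and GRX3 is low in both strains with top2ts.

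*GRX3* and *GRX4*, whose glutaredoxins pass the iron signal to Aft1p, differed in that only the former passed against wild-type. *GRX3* was the gene with the brightest wild-type signal among the 40, with values of 8622, 8881 and 8078 in wild-type and 7562, 7380.4 and 7903 in *top1Δ*. It was much dimmer in both strains with the *top2ts* allele, at 3893, 2012 and 3218 in *top2ts* and 2848, 1777 and 2783 in *top1Δtop2ts*. Neither of these strains overlapped with wild-type or *top1Δ*, and *top1Δ* itself lay just below all wild-type arrays (log2 change -0.16). The log2 change was -1.54 in *top2ts* (2.91-fold lower, adjusted p = 0.0126) and -1.82 in *top1Δtop2ts* (3.53-fold lower, adjusted p = 0.000155). Between the double mutant and *top2ts* the change was -0.28 (adjusted p = 0.71), with a 95% interval of -1.05 to 0.49. The call in *top2ts* was lost without replicate 1 or 3 of wild-type or replicate 2 or 3 of *top2ts*, with an adjusted p of up to 0.157, while that in *top1Δtop2ts* held in all 12 fits without 1 array. *GRX4* gave 1278 ± 379.6 in wild-type and 1279 ± 374 in *top2ts* (SD, n = 3), with a log2 change there of 0.00. In *top1Δtop2ts* its change of -0.71 did not pass (adjusted p = 0.181) but did so with the block (0.000934) and with spike-in scaling.

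The activator genes themselves did not pass the test in any strain. *AFT1* gave 1346, 748 and 1166 in wild-type, 874, 575 and 928 without topoisomerase I, 877, 476 and 809.9 in *top2ts* and 1131, 633 and 1261 in the double mutant. *AFT2* gave 1216, 625 and 1086 in the wild-type arrays, 874, 677 and 906 in those of *top1Δ*, 1156, 603 and 1042 in those of *top2ts* and 989.9, 597 and 1162 in those of the double mutant. All strains overlapped for both genes, with replicate 2 the lowest array in each. In *top1Δtop2ts* the log2 changes were -0.13 (adjusted p = 0.828) and -0.09 (adjusted p = 0.878), and both turned positive with equal medians, at 0.40 and 0.44 (adjusted p = 0.0132 and 0.00633). The change of *AFT1* in *top2ts*, -0.60, passed with the replicate block (adjusted p = 0.0165). *MAC1*, for the copper-sensing activator of *CTR1* and *FRE1*, gave 910.0, 521 and 774 in wild-type and 577, 362 and 458 in *top1Δtop2ts*, with 766, 541 and 822 in the *top1Δ* arrays and 681, 349 and 619 in those of *top2ts*. Its arrays overlapped between strains too, and its log2 change of -0.65 in *top1Δtop2ts* (adjusted p = 0.223) passed with the block (adjusted p = 0.00149).

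*TIS11*, also called CTH2, was the only one of the 40 genes past the test in *top1Δ* in the fit without a block or scaling. With the replicate block, with equal medians and with spike-in scaling, *ENB1*, *FET3* and *FRE4* were lower there too. *TIS11* is an Aft1p target, and its protein binds and destabilizes transcripts of iron-using proteins when iron is short. Its signal was 455, 217 and 358 in wild-type, 136, 73.6 and 169 without topoisomerase I, 276, 152 and 189 in *top2ts* and 144, 107 and 186 in the double mutant. Every array of *top1Δ* and of the double mutant lay below every wild-type array, whereas *top2ts* overlapped with wild-type. The log2 change was -1.46 in *top1Δ* (2.75-fold lower, adjusted p = 0.0258) and -1.21 in *top1Δtop2ts* (2.31-fold lower, adjusted p = 0.0204). It was -0.72 in *top2ts* and passed there with the replicate block (adjusted p = 0.0218). The call in *top1Δ* was lost without replicate 1 or 3 of wild-type, replicate 1 or 2 of *top1Δ* or replicate 3 of *top2ts*, with an adjusted p of up to 0.987 and log2 changes from -1.76 to -1.11 over the 12 fits. That in *top1Δtop2ts* was lost without replicate 1 or 3 of wild-type or replicate 2 of *top1Δtop2ts* (adjusted p of up to 0.200). The related gene *CTH1* had log2 changes from -0.21 to 0.05 in the 3 mutants, and none of them passed with or without the block.

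No gene of reductive iron uptake passed against wild-type in the fit without a block or scaling, though some did under alternatives. In *top1Δ* all 4 genes of this group lay below the median gene, with log2 changes from -1.10 to -0.50. *FET3*, for the multicopper oxidase, gave 2476, 1717 and 2315 in the wild-type arrays, 963, 731 and 1427 in those of *top1Δ*, 2691, 1538 and 2444 in those of *top2ts* and 2273, 1225 and 2646 in those of the double mutant. Only the *top1Δ* arrays stood apart, all below those of wild-type. The log2 change in *top1Δ* was -1.10 (adjusted p = 0.248, 0.00046 with the replicate block), and in *top1Δtop2ts* it was -0.14 (adjusted p = 0.808), which turned to 0.49 with quantile normalization. The change of *FET3* in *top1Δ* also passed with spike-in scaling and with equal medians (-0.90, adjusted p = 0.00504). *FTR1*, the partner permease of *FET3*, had a change of -0.54 in *top1Δ* and -0.55 in *top1Δtop2ts*, and both passed with the block (adjusted p = 0.0411 and 0.00842). *ATX1*, for the chaperone that hands copper on to the secretory pathway, gave 937, 623 and 798 in wild-type and 594, 319.8 and 483 in *top1Δtop2ts*, with 551, 457 and 648 in the *top1Δ* arrays and 1343, 884 and 1093 in those of *top2ts*. The double mutant lay below all arrays of wild-type and of *top2ts*. *ATX1* fell against *top2ts* (log2 change -1.27, adjusted p = 0.019), a call lost without replicate 1 or 3 of *top2ts* or replicate 2 or 3 of *top1Δtop2ts* (adjusted p of up to 0.135), and had a log2 change of -0.78 against wild-type (adjusted p = 0.14, 0.000416 with the block). In *top2ts* its log2 change from wild-type was 0.49, which passed with equal medians (0.73, adjusted p = 0.00522). *CCC2*, for the pump that loads copper into Fet3p, had a log2 change of 0.40 in *top1Δtop2ts* and -0.51 in *top1Δ*, and neither passed with or without the block (adjusted p = 0.0578 and 0.074 with it).

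Of the 4 siderophore transporters *ENB1* fell, while *SIT1*, *ARN1* and *ARN2* did not pass against wild-type. *ENB1*, for the enterobactin transporter, gave 1916, 1124 and 1833 in wild-type, 932, 456 and 935 without topoisomerase I, 1318, 924 and 1145 in *top2ts* and 770.3, 545 and 849 in the double mutant. The arrays of *top1Δ* and of the double mutant lay below all of wild-type. *ENB1* fell in *top1Δtop2ts* (log2 change -1.16, adjusted p = 0.0275), and its change of -1.10 in *top1Δ* passed with the replicate block (adjusted p = 0.238, 0.000282 with the block). The call in *top1Δtop2ts* was lost without replicate 1 or 3 of wild-type or replicate 2 of *top1Δtop2ts* (adjusted p of up to 0.171). *SIT1*, for the ferrioxamine B transporter, gave 563, 240.4 and 463 in the wild-type arrays, 245, 219 and 306 in those of *top1Δ*, 439, 259.6 and 251 in those of *top2ts* and 797, 546 and 1079.9 in those of the double mutant. The double mutant was above every array of both single mutants and overlapped with wild-type through its replicate 2. Against *top1Δ*, *SIT1* was higher by 1.61 (3.06-fold, adjusted p = 0.00178), and against *top2ts* by 1.35 (2.54-fold, adjusted p = 0.0119). Both calls were lost without replicate 3 of *top1Δtop2ts*, and the latter without replicate 3 of *top2ts* (adjusted p of up to 0.0581 and 0.138). Against wild-type the log2 change was 0.97 (adjusted p = 0.0677, 0.00106 with the block), and it was above 0 in 3 of 3 same-numbered pairs. *ARN1*, for the ferrichrome transporter, gave 840.4, 507 and 768 in wild-type and 1322, 887 and 1293 in *top1Δtop2ts*, with 678, 515 and 789 in the *top1Δ* arrays and 803, 461 and 784 in those of *top2ts*. It was the member of the 40 whose double mutant arrays all lay above those of wild-type, with a log2 change of 0.74 that passed with the block (adjusted p = 0.164, 0.000374 with the block). *ARN2*, for the transporter of triacetylfusarinine C, had a log2 change of 0.21 in *top1Δtop2ts* (adjusted p = 0.712).

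The Fit mannoproteins of the cell wall resembled *SIT1* and *ARN1* in part. *FIT2* gave 691, 338 and 667 in wild-type, 394, 265 and 437 without topoisomerase I, 581, 323 and 416 in *top2ts* and 990.0, 608 and 1254 in the double mutant. The double mutant exceeded both single mutants in every array and overlapped with wild-type. *FIT2* was higher in the double mutant than in *top1Δ* by 1.35 (2.55-fold, adjusted p = 0.0148, a call lost without replicate 1 or 2 of *top1Δ* or replicate 1 or 3 of *top1Δtop2ts*). Against *top2ts* and wild-type its differences of 1.09 and 0.76 did not pass (adjusted p = 0.0566 and 0.152) but did so with the block (6.51e-05 and 0.000989), with equal medians and with spike-in scaling. *FIT1* had log2 changes of 0.41, -0.61 and 0.26 in *top1Δ*, *top2ts* and the double mutant, and *FIT3* of -0.50, -0.58 and -0.31 in the same order. None of these passed. The changes in *top2ts* did so with the block (adjusted p = 0.0304 for *FIT1* and 0.0383 for *FIT3*), and those of *FIT1* in *top1Δ* and the double mutant with equal medians (adjusted p = 0.0261 and 0.00111).

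**Figure D3:**
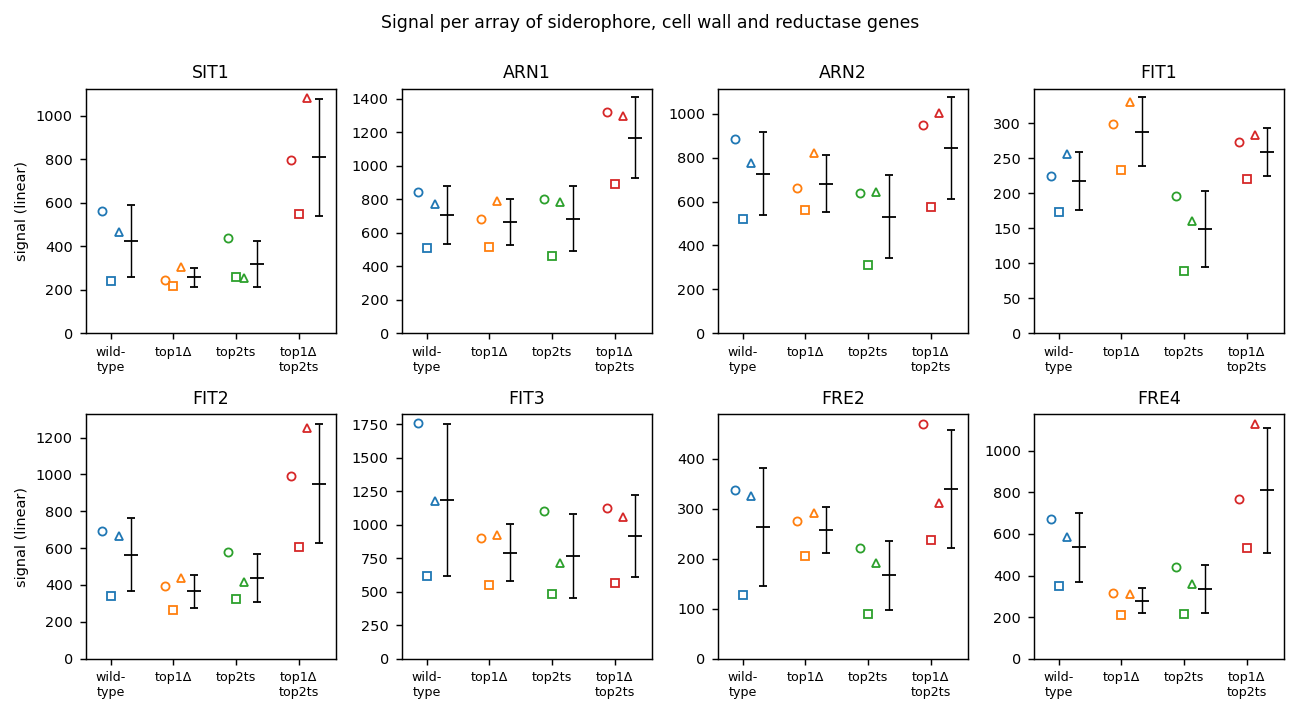
Signal on a linear scale (vertical axis, from 0) in each array of the 4 strains (horizontal axis) for 8 genes of siderophore uptake, cell wall iron retention and reduction. Circles, squares and triangles are replicates 1, 2 and 3, and bars give the mean ± SD of 3 arrays; SIT1 stands at 808 ± 267 in top1Δtop2ts, 257 ± 44.7 in top1Δ and 317 ± 106 in top2ts.

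Of the 6 metalloreductases, *FRE4* differed between the double mutant and each single mutant. *FRE3* and *FRE4* encode reductases for siderophore-bound iron, *FRE1* and *FRE2* the main reductases of the cell surface, and *FRE6* one of the vacuole. *FRE4* gave 674, 352 and 585 in the wild-type arrays, 317, 209 and 309.9 in those of *top1Δ*, 442, 214 and 357 in those of *top2ts* and 768, 533 and 1129 in those of the double mutant. The *top1Δ* arrays were all below those of wild-type, and the double mutant arrays were all above those of *top1Δ* and of *top2ts*. *FRE4* was higher in the double mutant than in *top1Δ* by 1.50 (2.82-fold, adjusted p = 0.00508) and than in *top2ts* by 1.26 (2.39-fold, adjusted p = 0.0213). The former call was lost without replicate 2 of *top1Δ* or replicate 3 of *top1Δtop2ts*, the latter without replicate 2 or 3 of *top2ts* or replicate 1 or 3 of *top1Δtop2ts*, with adjusted p of up to 0.105 and 0.200. Against wild-type it had log2 changes of -0.92, -0.68 and 0.58 in *top1Δ*, *top2ts* and the double mutant, none of which passed. All 3 did so with the replicate block (adjusted p = 0.00195, 0.0181 and 0.00689), the first and the last with equal medians as well (adjusted p = 0.00796 and 5.99e-05). *FRE2* and *FRE3* had log2 changes of 0.44 and -0.14 in the double mutant, and *FRE1* and *FRE6* of -0.45 and -0.72, of which the latter pair passed with the block (adjusted p = 0.0165 and 0.00124). *FRE5*, of unsettled function, had values at the background of the array. It gave 14.4, 14.6 and 19.4 in wild-type and 27.7, 9.0 and 20.2 in *top1Δtop2ts*, with 17.3, 4.8 and 11.8 in the *top1Δ* arrays and 21.9, 1.8 and 2.9 in those of *top2ts*. The 95th percentile of the 17 Tag control probe sets, which match no yeast gene, was 18.4, and 8 of these 12 values lay at or under it. The other 39 genes had mean signals above that level. No size of change is read from *FRE5*, and its calls in *top2ts* and between the double mutant and *top2ts* rest on such values.

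Read against the single mutants, the double mutant differed from each in both directions. Against *top1Δ*, 3 of the 40 genes were lower (*CTR3*, *GRX3* and *MRS3*, 5.12% of all genes) and 3 were higher (*SIT1*, *FRE4* and *FIT2*, 2.29%). Against *top2ts*, 2 were lower (*CTR3* and *ATX1*, 6.74%) and 3 higher (*SIT1*, *FRE4* and *FRE5*, 2.09%). With the replicate block 14 were lower (47.1%) and 6 higher (9.01%) than in *top1Δ*, and 17 lower (41.3%) and 10 higher (8.50%) than in *top2ts*. Scaling to the spike-ins gave 12 lower (42.0%) and 6 higher (5.32%) than in *top1Δ*, and 15 lower (39.3%) and 7 higher (4.42%) than in *top2ts*. A set of 3 calls amounts to 7.50% of the 40 genes. Leaving out replicate 3 of *top1Δtop2ts* took the higher calls to 0 against *top1Δ* and to 1 against *top2ts*, and leaving out its replicate 2 took them to 5 in both, while leaving out replicate 2 of *top2ts* took the lower calls to 5 and 7. Those against *top2ts* went to 1 without replicate 1 or 3 of *top2ts* or replicate 2 or 3 of *top1Δtop2ts*, and the higher ones to 1 without replicate 3 of *top2ts*. With the block, 8 genes were lower in *top1Δ* than in wild-type (12.4%) and 0 higher (0.569%), and 12 were lower in *top2ts* (9.08%) and 0 higher (1.12%). The *top1Δ* arrays lay below all wild-type arrays for 5 genes (5.63%), *ENB1*, *FET3*, *FRE4*, *GRX3* and *TIS11*, and the *top2ts* arrays for *GRX3* alone (2.15%).

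Whether the double mutant departs from the sum of the single mutants was asked of each gene on the log2 scale. Of the 40 genes, 3 lay above that sum (1.65% of all genes) and 0 below it (0.679%). The departure was 1.99 for *SIT1* (adjusted p = 0.0179) and 2.18 for *FRE4* (adjusted p = 0.00567), each with a standard error of 0.55, and *FRE5* passed from values at background. *SIT1* had log2 changes of -0.64 and -0.38 in the single mutants and 0.97 in the double mutant, and *FRE4* of -0.92, -0.68 and 0.58. The estimates of both genes thus had opposite signs in single and double mutants, but none of these changes passed against wild-type. With the replicate block those of *FRE4* all passed. Of *SIT1* only the change in the double mutant did (adjusted p = 0.0644 in *top1Δ* and 0.266 in *top2ts* from limma). The call of *SIT1* was lost in 7 of 12 fits, those without replicate 1 or 3 of wild-type, 1 or 2 of *top1Δ*, 3 of *top2ts* and 1 or 3 of *top1Δtop2ts*, and that of *FRE4* in 2, those without replicate 2 of *top1Δ* and without replicate 3 of *top1Δtop2ts*, with adjusted p of up to 0.155 and 0.0826. *CTR3* had the lowest departure, -1.55 (adjusted p = 0.143, 4.25e-05 with the block). For *GRX3* the departure was -0.12 (adjusted p = 0.992), with a 95% interval of -1.20 to 0.97. With the replicate block 12 genes lay above the sum (9.21%) and 3, *ATX1*, *CTR3* and *MRS3*, below it (14.0%).

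**Figure D4:**
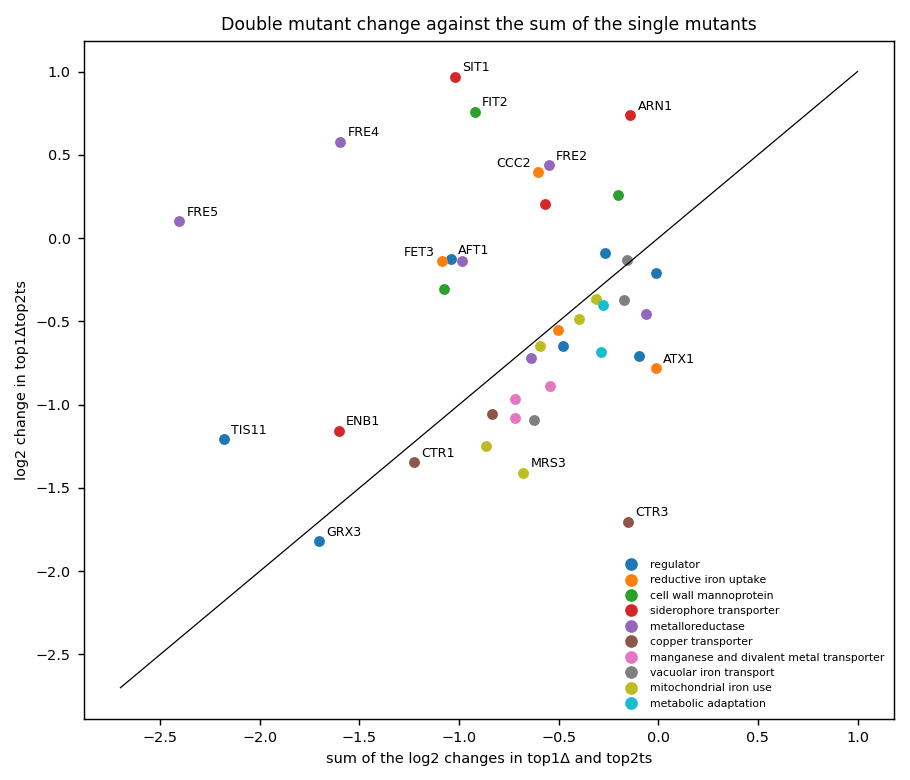
Log2 change in top1Δtop2ts (vertical axis) against the sum of the log2 changes in top1Δ and top2ts (horizontal axis) for the 40 genes, 1 point each, coloured by role. Points on the line have a double change equal to the sum; SIT1, FIT2, FRE4 and ARN1 lie above it, CTR3 lies furthest below it and GRX3 and CTR1 lie close to it.

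Position along the chromosome, which the choice of genes by symbol did not use, went with the direction in the double mutant and also with the role of the genes. By the gene order of assembly R64, 14 of the 40 genes lay within 30 genes of a chromosome end, namely the 4 siderophore transporters, the 3 FIT genes, 5 FRE genes, *FET5* and *GRX4*. *FIT2*, *FIT3* and *FRE5* are consecutive on chromosome XV, with *FRE3* next but one to *FIT2*. The 14 genes had a median log2 change of 0.15 in *top1Δtop2ts*, and 8 of them (57.1%) lay above 0, *FRE5* at background included (7 of 13 without it). The other 26 had a median of -0.67 with 1 above 0 (3.85%), *CCC2*. Among all genes the corresponding medians were -0.47 within 30 genes of an end (n = 824, 21.0% above 0) and -0.56 elsewhere (n = 4622, 13.1% above 0). With equal medians 11 of the 14 genes (78.6%, median 0.68) and 10 of the other 26 (38.5%, median -0.14) lay above 0, against 55.5% and 46.9% of all genes near ends and elsewhere. In *top1Δ* the 14 genes had a median of -0.48 and the other 26 of -0.27, and in *top2ts* -0.50 and -0.25. *ENB1* and *GRX4* lay near ends too and had log2 changes of -1.16 and -0.71. Most of the 14 genes are siderophore, FIT and FRE genes, so position and role cannot be told apart here. For the genes affected in the double mutant over the whole genome, the paper reports no bias toward regions near telomeres. The window of 30 genes was chosen with the values known, and these figures are a description without a test.

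**Figure D5:**
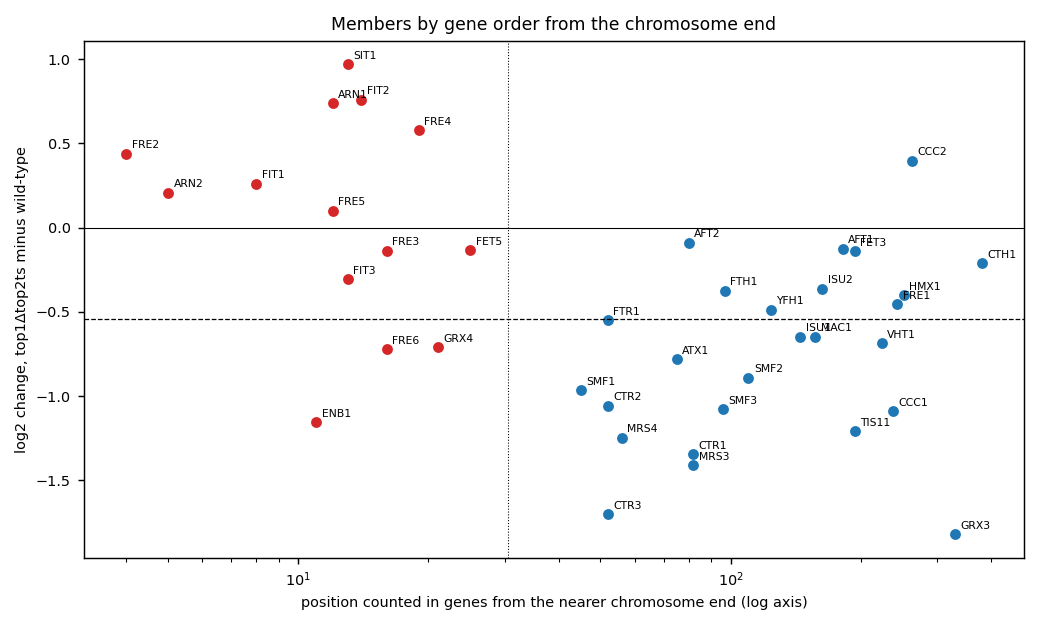
Log2 change in top1Δtop2ts against wild-type (vertical axis) for the 40 genes by their position counted in genes from the nearer chromosome end (horizontal axis, log scale). Red points lie within 30 genes of an end (dotted line), the dashed line is the median gene at -0.54; 8 of 14 red points and 1 of 26 blue points lie above 0.

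Changes were also set beside brightness, which in wild-type cells enters the change itself. With the genes split into 5 equal classes of wild-type signal, the 8 members in the dimmest class had a median log2 change of 0.18 in *top1Δtop2ts* against -0.29 for all genes of that class. The 4 in the brightest class, *CTR1*, *FRE1*, *GRX3* and *ISU1*, had -0.996 against -0.74. In the middle 3 classes the medians of the members were -0.49, -0.54 and -0.55 against -0.44, -0.52 and -0.64. The dimmest class also holds *TIS11* and *CTR3*, which fell, and *FRE5* at background. The part of brightness in these changes was not tested.

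Among other genes of iron and copper biology, the transcript of the low-affinity iron transporter fell in *top1Δtop2ts* and that of the peroxisomal catalase rose. No gene of 9 further lists passed in a single mutant. Of all genes, 15.1% fell and 1.25% rose in *top1Δtop2ts*, and the counts below stand beside these shares. In *top1Δtop2ts*, among 6 other metal transporters 3 fell, *FET4* for the low-affinity iron transporter (log2 change -1.79, adjusted p = 0.000210 from limma), *ATX2* for a manganese transporter of the Golgi (-1.44) and *PMR1* for the calcium and manganese pump of the Golgi (-1.26). *FET4* gave 7682, 3874 and 5776 in wild-type, 3956, 2708 and 3993 without topoisomerase I, 7163, 2905 and 4806 in *top2ts* and 1829.5, 1257 and 1816 in the double mutant, so the double mutant lay below all other arrays. Of the 5 measured among 7 other Aft1p targets *ECM4* fell (-1.31), and of 3 other reductase genes *FRE7*, which responds to copper, fell (-1.21). Of 14 genes of mitochondrial iron-sulfur assembly *ERV1*, *SSQ1* and *ATM1* fell (-1.26, -1.12 and -1.08), of 8 of the cytosolic pathway *TAH18* (-1.10), and of 8 of heme synthesis *HEM15* for ferrochelatase (-1.06). Among 10 iron-using enzymes *GLT1*, *ILV3* and *LEU1* fell (-1.50, -1.18 and -1.13), and *CTA1* for the peroxisomal catalase rose from 203, 80.3 and 179 in wild-type to 461, 199.6 and 534 in *top1Δtop2ts* (1.36, adjusted p = 0.00812). Of 9 measured genes of copper use 0 passed, the brightest being *CUP1-1* for metallothionein (-0.29, adjusted p = 0.586) and *SOD1* for copper-zinc superoxide dismutase (-0.67, adjusted p = 0.206). Of 4 measured genes of Aft1p transport and sensing 0 passed, among them *PSE1* (-0.76) and *MSN5* (-0.72), which carry Aft1p into and out of the nucleus. The list medians lay between -1.08 for the metal transporters and -0.35 for copper use, beside -0.54 for all genes.

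Markers of cell cycle stage moved as well in the strain where the metal genes fell. The summed signal of 5 genes of S phase or mitosis ran from 3017 to 5041 in *top1Δtop2ts* against 8001 to 17283 in wild-type, with *HTB2*, *CLB2* and *HTA1* past the test (log2 changes -2.75, -2.19 and -1.44). That of 3 genes of pheromone arrest, *FUS1*, *FAR1* and *KAR4*, ran from 10794 to 17248 against 10125 to 13049, and in *top2ts*, where *GRX3* fell, from 16172 to 28767. None of these 3 passed the test, all 3 were higher in *top2ts* with the replicate block, and the markers of both lists were above background in every strain. The part of cell cycle stage in the changes of the metal genes was not tested.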

How the data were processed

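Total RNA of 12 cultures (4 strains, 3 biological replicates each) was labelled from 2 µg and hybridized to Affymetrix Yeast Genome 2.0 arrays, 1 per culture. The deposited values are MAS5 signals, linear intensities that the authors computed with Affymetrix software; their methods describe external normalization to poly-A spike-ins, yet 36 spike-in probe sets did not stand at a common level in the deposited table. Of 10928 probe sets 5028 were 0 on every array and were left out, and 5498 were paired with exactly 1 gene; genes with several were given the mean of their log2 values, which left 5449 genes. The 4 values at 0 were set to 0.1 before taking log2. Differences between strains were fitted with limma 3.58.1 (R 4.3.3) over all 12 arrays without a block, with Benjamini-Hochberg adjustment and a threshold of 0.05, and intervals are the change ± the normal quantile times the standard error. Python 3.11.15, numpy 2.4.6, pandas 2.3.3 and matplotlib 3.10.9 were used for summaries and plots, and the fits were tested on simulated data. An exact permutation test of 3 against 3 arrays cannot go below p = 0.1.

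The 40 genes, the other lists and the tests were chosen with earlier results of these data known. Every member was named, with the value of each array for those that passed the test against wild-type in any mutant and for *AFT1*, *AFT2* and *MAC1*; those of *SIT1*, *FIT2*, *ARN1*, *FRE4*, *FET3* and *ATX1* were added after the values were seen. From each other list up to 4 genes that passed were named, largest change first, or otherwise the 2 with the highest wild-type signal. CUP1-2, ICY2 and LAP4 are among the listed genes without a measured probe set of their own. Alternatives were equal array medians, quantile and spike-in scaling, a replicate block, a prior variance with a trend, only the compared groups, a filter at the Tag control level, a floor of 10, single probe sets and leaving out arrays. The replicate block rests on the methods, which describe 3 sets of experiments with a fold change for each, and on the spike-in levels, which group by number; deviations from strain means correlated above 0.1 in 10 of 18 same-numbered pairs, and for 10 of 12 arrays the closest match shared the replicate number.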

Additional observations from a re-analysis of the deposited data

Results flagged for a closer look

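For 3 of the 40 genes (7.50%), *FRE5* at background included, the effect of *top2ts* differed with the state of *TOP1*. The test was that of the departure of the double mutant from the sum of the single mutants. Of all genes, 1.65% passed it upward and 0.679% downward. With a trend in the prior variance, 1 of the 40 genes passed. For *FRE4* the effect of *top2ts* was 2.18 log2 units higher in *top1Δ* cells than in cells with *TOP1* (adjusted p = 0.00567 from limma), being -0.68 in the latter and 1.50 in the former. For *SIT1* the difference was 1.99 (adjusted p = 0.0179), with effects of -0.38 and 1.61. The call of *SIT1* was lost in 7 of 12 fits that left out 1 array, and that of *FRE4* in 2. For *FRE5* the fit gave 2.51, but most of its values lie at or under the background level of the array, so no size of change can be read from it.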

How the results depend on the processing

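Counts of the 40 genes past the test are given as lower and higher. For *top1Δtop2ts* against wild-type they were 10 and 0, 12 and 11 with equal medians, 12 and 13 with quantile normalization, 21 and 3 with spike-in scaling, 22 and 4 with the replicate block, 25 and 4 with the block and spike-in scaling, and 7 and 0 with the 2 groups alone. For *top1Δ* they were 1 and 0, then 4 and 1, 5 and 1, 4 and 0, 8 and 0, and 13 and 0 in the order of the first 5 of these alternatives, and 0 lower with a trend in the prior variance. For *top2ts* they were 2 and 0, then 2 and 1, 2 and 1, 3 and 0, 12 and 0, and 10 and 0, and 1 lower with the trend, the groups alone, the Tag filter or the floor of 10. For *top1Δtop2ts* against *top1Δ* they were 3 and 3, then 10 and 14, 11 and 12, 12 and 6, 14 and 6, and 17 and 6, and 5 and 4 with the groups alone. Against *top2ts* they were 2 and 3, then 9 and 12, 8 and 12, 15 and 7, 17 and 10, and 20 and 8, 1 and 2 with the groups alone and 2 and 2 with the trend. For the departure from the sum they were 0 and 3, then 4 and 13, 4 and 10, 1 and 4, 3 and 12, and 4 and 11, with 2 higher under the Tag filter or the floor of 10 and 1 with the trend. A fit of the compared groups alone cannot be applied to the departure. Fitting each probe set on its own changed no count. Leaving out 1 array gave 2 to 13 lower and 0 to 1 higher for *top1Δtop2ts*, 0 to 2 and 0 for either single mutant, 2 to 5 and 0 to 5 against *top1Δ*, 1 to 7 and 1 to 5 against *top2ts*, and 0 to 1 and 0 to 4 for the departure. Without all 4 arrays of replicate 2, an alternative chosen after seeing the data, 19 were lower and 4 higher in *top1Δtop2ts*, 7 and 0 in *top1Δ*, 1 and 0 in *top2ts*, 10 and 6 against *top1Δ*, 12 and 8 against *top2ts* and 1 and 6 for the departure. Over all genes the same alternative gave 2723 and 206 in *top1Δtop2ts*, 449 and 5 in *top1Δ*, 67 and 30 in *top2ts*, 1360 and 428 against *top1Δ*, 1779 lower against *top2ts*, and 237 and 335 for the departure. Over all genes, the counts for *top1Δtop2ts* were 821 and 68, 1249 and 1184 with equal medians, 1277 and 1303 with quantile normalization, 3410 and 136 with spike-in scaling, 3415 and 272 with the replicate block and 212 to 1866 lower without 1 array. For *top1Δ* they were 51 and 3 against 346 and 165, 268 and 180, 351 and 8, and 675 and 31, and for *top2ts* 29 and 18 against 151 and 182, 187 and 179, 143 and 32, and 495 and 61. Against *top1Δ* they were 279 and 125, then 1362 and 1192, 1306 and 1191, 2289 and 290, and 2566 and 491, with 600 and 199 for the groups alone. Against *top2ts* they were 367 and 114, then 1327 and 1128, 1291 and 1317, 2144 and 241, and 2251 and 463, with 231 and 81 for the groups alone, and for the departure 37 and 90, then 865 and 782, 793 and 786, 332 and 247, and 765 and 502, with 31 and 45 for the trend. Log2 changes in *top1Δtop2ts* that turned positive and passed with equal medians and quantile normalization were those of *AFT1* (0.40 and 0.42), *AFT2* (0.44 and 0.43) and *FET5* (0.39 and 0.39), and with quantile normalization alone *CTH1* (0.31) and *FET3* (0.49). *FTR1* against *top1Δ* turned to 0.32 and 0.45, and *ISU2* against *top2ts* to 0.30 with quantile normalization. Equal medians shift every gene of a comparison by the same amount, and the array medians of *top1Δtop2ts* stood on average -0.52 log2 units from wild-type. For quantile normalization the cause was not tested. Of the other values, for single genes and for counts over all genes, 4782 kept direction and side of the threshold or a similar count, 427 passed only under the alternative, 98 only in the fit as reported, and 430 changed sign with no call in either fit or, for counts, moved. In the fit without a block, where the standard error was 0.39 for every gene, the lowest change called in *top1Δtop2ts* was 1.04 log2 units. That standard error includes the spread shared by arrays of a number. With the replicate block smaller changes passed, such as -0.36 for *ISU2*. The number of arrays, 3 a strain, also limits the precision.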
